A study of Mus musculus with 15 samples.

Results

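The 10 genes described here, which the transcription factor p53 is known to activate, were followed through the induction of Celf1 in the mouse heart. They are Mdm2, Ccng1, Gtse1 and Trp53inp1, which act on p53 itself, Cdkn1a and Btg2, which restrain cell division, Bax, Eda2r and Phlda3, which bear on cell death and survival, and Sesn2, which restrains growth signalling. These are 10 of the 16042 genes in the deposited table and were picked by symbol because of their levels after 72 hours, so every comparison that uses the 72 hour hearts describes them and does not test them. The study measured polyadenylated RNA of the ventricles of 15 mice aged 20 to 22 weeks, 3 in each of 5 groups. All mice carried a reverse tetracycline activator (rtTA) under the promoter of alpha myosin heavy chain, which is active in cardiomyocytes, and all ate food with doxycycline at 2 g per kg. Mice of 4 groups also carried a tet-inducible cassette for the LYLQ isoform of human Celf1 with an N-terminal Flag tag, and they were killed after 12 hours, 24 hours, 72 hours or 7 days. The 3 control mice lacked that cassette and had doxycycline for 72 hours, so time on doxycycline matches only between the 72 hour group and the controls. Celf1 is an RNA-binding protein that regulates splicing, decay and translation of messenger RNA.

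p53 is kept low in unstressed cells by the ubiquitin ligase Mdm2, and it accumulates after DNA damage and other stresses, when it binds response elements near its target genes. The targets halt the cell cycle, trigger or restrain cell death, aid repair and adjust metabolism, and Mdm2 is itself a target, which closes a feedback loop. Cardiomyocytes of the adult heart rarely divide, and p53 activity in them is known mostly from stress, ageing and heart failure.

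The sequences nearest to the subject are the stretches that resemble the p53 response element close to the starts of these genes. The element consists of 2 half-sites of 10 bases, and the search allowed no spacer, up to 2 mismatches and none at the C or the G of the CNNG core of either half-site (the 2 bases between them could mismatch), within 3000 bases of the gene's annotated start on either side. It reads the same on both strands. Such a stretch was present at 5 of the 10 genes and at 6.55% of 9607 tested genes that could be scanned. With at most 1 mismatch it was present at 3 of the 10 genes and at 1.03% of the scanned genes. The 6 stretches are shown in mm9, read on the strand of the gene, with the 20 bases of the element in capitals and 5 bases on either side. A match describes the letters only, and the other 5 genes had no match in this window, which says nothing of their binding by p53.
Cdkn1a, chr17:29227873-29227892, plus strand, 42 bases before the start, 1 mismatch: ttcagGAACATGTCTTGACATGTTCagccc
Ccng1, chr11:40568964-40568983, minus strand, 160 bases before the start, 1 mismatch: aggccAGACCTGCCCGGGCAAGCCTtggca
Ccng1, chr11:40568438-40568457, minus strand, in an intron 366 bases after the start, 1 mismatch: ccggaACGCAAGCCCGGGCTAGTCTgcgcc
Gtse1, chr15:85690375-85690394, plus strand, in an exon 247 bases after the start, 1 mismatch: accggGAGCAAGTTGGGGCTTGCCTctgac
Bax, chr7:52721944-52721963, minus strand, in an exon 315 bases after the start, 2 mismatches: cccccGGGCAGGCCCGGGCTTGTCGctggc
Eda2r, chrX:94571873-94571892, minus strand, in an intron 673 bases after the start, 2 mismatches: tgcctGGGCAAGTCCGGGCCTGTGTaaaaa

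Expression is given as RPKM, a read count divided by the gene model's length in kilobases and by the mapped reads in M. The table has 20 columns because 5 mice have 2 columns each, which were averaged. Depth was estimated from the step between the low values of genes with 1 exon, of which 70 were listed and 5 to 21 were usable in a column. It ranged over 16.5 to 51.8 M reads in a column (median 26.7 M). Column names include a code, 9 in all, that no label explains. The controls have the same code as the 72 hour mouse A3278 and no other mouse, and none of the codes at 24 hours is found at another time. The table's gene model for Celf1 (Cugbp1), in which the share of reads from the human cassette is not given in the sources used here, had a mean of 305 RPKM at 12 hours, 378 RPKM at 24 hours, 173 RPKM at 72 hours and 32.8 RPKM at 7 days, against 34.4 RPKM in the controls. No value here measures the cassette apart from the mouse gene.

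A difference is given on the scale of log2(RPKM + 1), with its standard error from 1 limma fit of all 15 mice, and a gene is called where the Benjamini-Hochberg adjusted p over the 10868 genes whose mean is 1 RPKM or more is under 0.05. All 10 genes passed that filter, also when the 72 hour hearts were left out of the mean, where Eda2r at 1.12 RPKM and Gtse1 at 1.24 RPKM were lowest. Gtse1 had group means of 0.28 RPKM at 12 hours, 0.13 RPKM at 24 hours and 0.35 RPKM in the controls. For Eda2r these means were 0.47, 1.09 and 0.61 RPKM. Both genes therefore passed only through the late groups where they are high, and their calls at 7 days are not free of the filter. The pseudocount of 1 makes the differences of such low genes smaller than their ratios. In whole tissue, more RNA per cell and more cells of a type cannot be told apart.

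Of the 10 genes, 9 had all 3 values at 72 hours above all 3 control values, which was so for 15.5% of all tested genes, and the exception was Ccng1. None had all values below the controls, against 19.5% of all tested genes. The choice of the genes fixed this count. Their median difference at 72 hours was 2.36, against -0.10 over all tested genes. At 12 hours their median was -0.19, against -0.30 over all tested genes. At 24 hours it was 0.16, against -0.19. At 7 days it was 0.77, against -0.03.

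**Figure D1:**
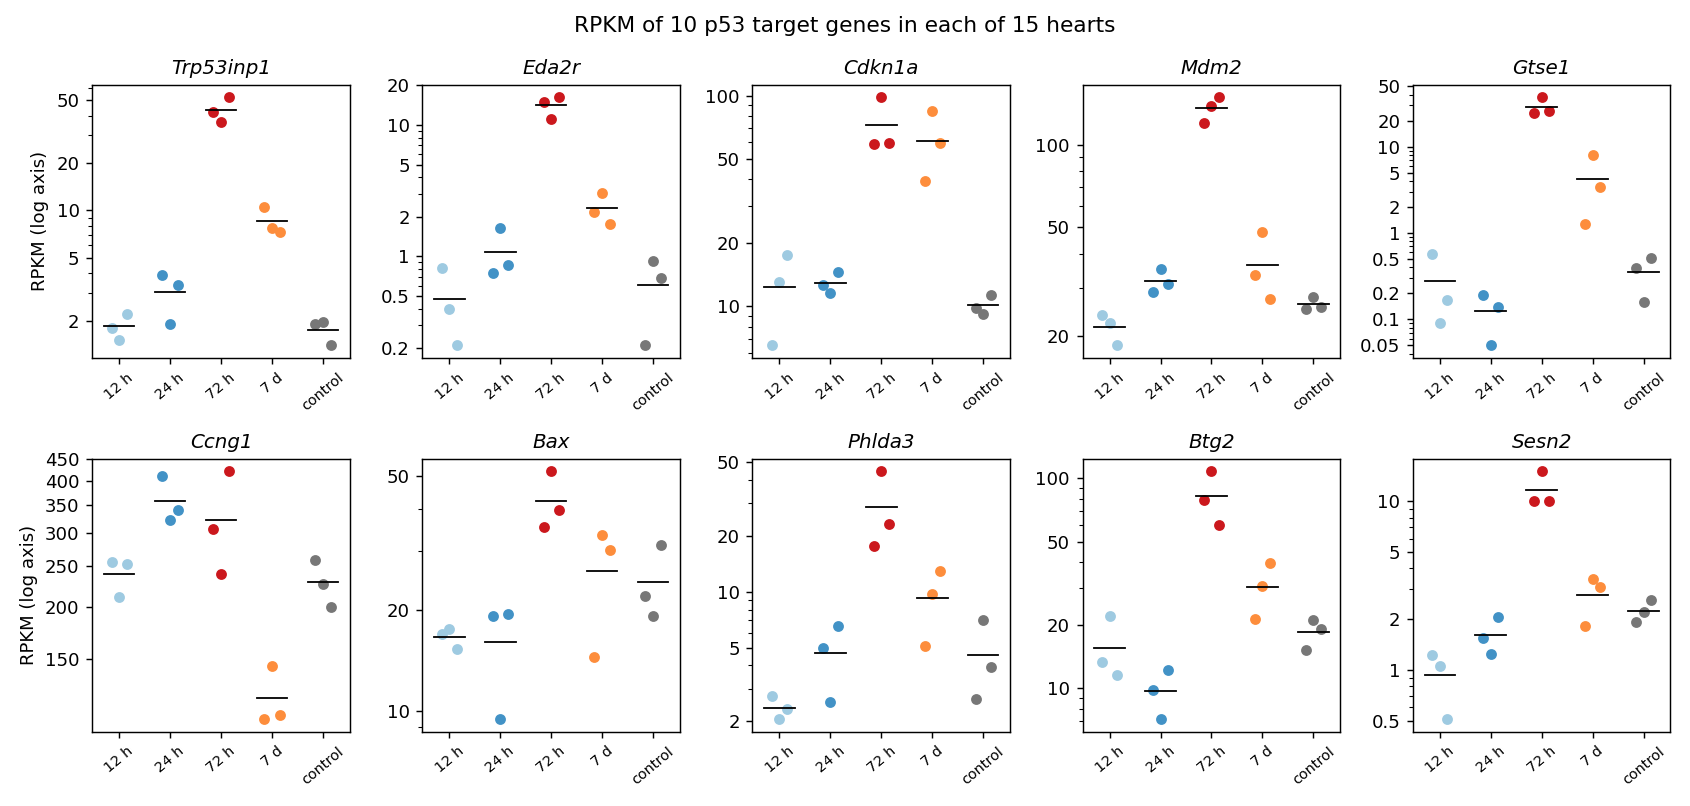
RPKM on log axes with separate ranges for each of 10 p53 target genes; each point is 1 heart, bars are group means of 3 hearts, and groups run 12 hours, 24 hours, 72 hours, 7 days and control. In 9 panels the 72 hour points lie above all control points, whereas in Ccng1 they overlap the controls, and only in Cdkn1a do the 7 day points overlap those at 72 hours.

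Mdm2 lies on chromosome 10 at 117125944 to 117147814 of mm9 (minus strand) and encodes the ligase that marks p53 for destruction. It had 23.9, 22.4 and 18.5 RPKM at 12 hours, 29.0, 35.3 and 31.0 RPKM at 24 hours, 120, 139 and 149 RPKM at 72 hours, and 33.3, 48.1 and 27.4 RPKM at 7 days, against 25.1, 27.9 and 25.5 RPKM in the controls. The 3 hearts at 72 hours stood above all others, the 7 day hearts overlapped those at 24 hours and the controls, and the 12 hour hearts were all just below the controls. The mean at 72 hours was 5.20 times that of the controls (difference 2.33 ± 0.19). At 7 days the difference from control was 0.42 ± 0.19, which missed the threshold (adjusted p = 0.0701). It was called where the 7 day heart A3345 was left out (0.60, adjusted p = 0.0193). Between 7 days and 12 hours Mdm2 was higher by 0.69 ± 0.19 (adjusted p = 0.00596), but not under median-of-ratios scaling (0.38, adjusted p = 0.114). The 2 columns of a mouse differed by a factor of at most 1.08 for Mdm2.

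Ccng1, on chromosome 11 at 40562054 to 40568813 (minus strand), encodes cyclin G1, which recruits a phosphatase to Mdm2. It was the most abundant of the 10 genes and followed another course. It had 255.7, 211 and 254 RPKM at 12 hours, 410, 323 and 341 RPKM at 24 hours, 307, 239 and 422 RPKM at 72 hours, and 108, 145 and 110 RPKM at 7 days, against 259, 227 and 200 RPKM in the controls. The 24 hour values were all above the controls and overlapped those at 72 hours, and the 7 day values were below every other heart. Ccng1 rose by 0.64 ± 0.21 at 24 hours (adjusted p = 0.0442), and it lost that call when any of the 6 hearts of the comparison was left out (0.54 to 0.74) and with the correction for GC content, under which the difference was 0.25 (adjusted p = 0.273). At 7 days it fell by 0.92 against control (SE 0.21, adjusted p = 0.00126), to 0.529 times the control mean. At 72 hours the difference was 0.46 ± 0.21, and the mouse that shares the controls' code was at 1.05 times the control mean.

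Gtse1, on chromosome 15 at 85690137 to 85707002 (plus strand), encodes a microtubule-associated protein of dividing cells that in human cells moves p53 out of the nucleus. It had 0.57, 0.09 and 0.17 RPKM at 12 hours, 0.19, 0.05 and 0.14 RPKM at 24 hours, 24.2, 37.2 and 25.9 RPKM at 72 hours, and 1.26, 7.93 and 3.44 RPKM at 7 days, against 0.39, 0.16 and 0.51 RPKM in the controls. The early groups overlapped the controls near the limit of the measurement, where a column held about 0 to 30 reads, against about 1292 to 2894 reads in a column at 72 hours. The ratio of means at 72 hours was 82.4, the largest of the 10 genes, and the difference of 4.46 ± 0.34 ranked 2 of 10868 tested genes from the highest. Gtse1 rose by 1.73 ± 0.34 at 7 days against control (adjusted p = 0.000375), with all values above the controls and wide spread among the 7 day hearts.

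Trp53inp1, on chromosome 4 at 11083578 to 11101526 (plus strand), encodes a stress protein that binds p53 and favours its activation. It had 1.8, 1.5 and 2.21 RPKM at 12 hours, 3.88, 1.91 and 3.35 RPKM at 24 hours, 42.2, 36.2 and 52.2 RPKM at 72 hours, and 10.6, 7.79 and 7.29 RPKM at 7 days, against 1.90, 1.96 and 1.39 RPKM in the controls. Both late groups lay above all others and apart from each other, while 1 of 3 hearts at 24 hours fell among the controls. The mean was 24.9 times the control mean at 72 hours and 4.88 times at 7 days. At 24 hours the difference was 0.53 ± 0.21, which missed the threshold (adjusted p = 0.0911). At 7 days it rose by 1.79 ± 0.21 (adjusted p = 2.93e-06).

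Cdkn1a, on chromosome 17 at 29227924 to 29237667 (plus strand), encodes p21, the inhibitor of cyclin-dependent kinases through which p53 halts the cell cycle. It had 6.53, 12.99 and 17.6 RPKM at 12 hours, 12.7, 11.6 and 14.6 RPKM at 24 hours, 59.0, 98.1 and 59.9 RPKM at 72 hours, and 39.3, 84.5 and 59.7 RPKM at 7 days, against 9.81, 9.25 and 11.3 RPKM in the controls. It was the 1 gene of the 10 whose 7 day values overlapped those at 72 hours. The 24 hour values were all above the controls, but by 0.33 ± 0.30 only (adjusted p = 0.451). At 7 days the level was 6.04 times the control mean, a rise of 2.42 ± 0.30 (adjusted p = 4.5e-06). The 2 columns of the 7 day mouse A3283 were 112 and 57.2 RPKM, so the columns of 1 mouse differed about as much as the mice of the group.

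Btg2, on chromosome 1 at 135971747 to 135975697 (minus strand), encodes an antiproliferative protein that speeds the shortening of poly(A) tails. It had 13.3, 22.0 and 11.6 RPKM at 12 hours, 9.79, 7.13 and 12.3 RPKM at 24 hours, 78.6, 108 and 59.8 RPKM at 72 hours, and 21.3, 30.7 and 39.5 RPKM at 7 days, against 15.2, 21.2 and 19.1 RPKM in the controls. The 24 hour hearts were all below the controls and the 72 hour hearts all far above them. Btg2 fell by 0.88 at 24 hours (SE 0.28, adjusted p = 0.0417), a call that median-of-ratios scaling ended (-0.68, adjusted p = 0.0623), as did leaving out any heart of the comparison except A3277. The 7 day values were all above the controls, and the difference of 0.66 ± 0.28 missed the threshold (adjusted p = 0.0512). Under 8 alternatives it passed, among them median-of-ratios scaling (0.70, adjusted p = 0.0201).

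Bax, on chromosome 7 at 52717065 to 52722268 (minus strand), encodes the protein that opens the outer mitochondrial membrane in apoptosis. It had 17, 17.6 and 15.3 RPKM at 12 hours, 19.2, 9.48 and 19.5 RPKM at 24 hours, 35.2, 51.7 and 39.7 RPKM at 72 hours, and 14.5, 33.5 and 30.2 RPKM at 7 days, against 22.0, 19.3 and 31.3 RPKM in the controls. The 12 hour values were all below the controls. The 72 hour values were the highest, with a mean 1.75 times that of the controls, and the lowest of them stood just above the highest control. No tested comparison called Bax. At 7 days its difference from control was 0.05, with a 95% interval of -0.57 to 0.68. With a correction for GC content, which is 62.6% for Bax against a median of 50.6% over the table, it was 0.68 at 7 days (adjusted p = 0.00723).

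Eda2r, on chromosome X at 94529179 to 94572555 (minus strand), encodes a receptor of the tumour necrosis factor family that binds ectodysplasin A2. It had 0.81, 0.40 and 0.21 RPKM at 12 hours, 0.75, 1.65 and 0.86 RPKM at 24 hours, 15.1, 11.1 and 16.2 RPKM at 72 hours, and 2.17, 3.04 and 1.76 RPKM at 7 days, against 0.21, 0.93 and 0.69 RPKM in the controls. The 72 hour hearts stood highest, the 7 day hearts came next and overlapped no other group, and the early groups overlapped the controls. The mean at 72 hours was 23.2 times that of the controls. Eda2r rose by 1.05 ± 0.24 at 7 days (adjusted p = 0.00121), and this call was lost with the correction for GC content (0.46, adjusted p = 0.0962) and with the column code as a term (0.57, adjusted p = 0.304). The fit with that term ties the controls to the other groups through the 72 hour mouse A3278 alone.

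Phlda3, on chromosome 1 at 137662696 to 137665713 (plus strand), encodes a small membrane-binding protein that competes with the survival kinase Akt. It had 2.72, 2.05 and 2.34 RPKM at 12 hours, 4.94, 2.56 and 6.52 RPKM at 24 hours, 17.6, 44.8 and 23.2 RPKM at 72 hours, and 5.07, 9.71 and 12.995 RPKM at 7 days, against 2.63, 7.04 and 3.94 RPKM in the controls. The 72 hour hearts lay above all others, and every other group overlapped the controls. At 7 days it rose by 0.89 ± 0.37 (adjusted p = 0.0495), and the call was lost without either of the 7 day hearts A3283 and A3345 and without either of the controls A3250 and A3280 (0.62 to 0.84). The 2 columns of A3283 were 14.8 and 4.62 RPKM, 3.20 times apart.

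Sesn2, on chromosome 4 at 132047947 to 132066416 (minus strand), encodes a leucine sensor that restrains the growth kinase complex mTORC1. It had 1.23, 1.05 and 0.51 RPKM at 12 hours, 1.54, 1.24 and 2.06 RPKM at 24 hours, 9.995, 15.1 and 10.03 RPKM at 72 hours, and 1.81, 3.47 and 3.11 RPKM at 7 days, against 1.93, 2.21 and 2.60 RPKM in the controls. The 12 hour hearts were all below the controls, the 24 hour and 7 day hearts overlapped them, and those at 72 hours were far above. Sesn2 fell by 0.76 at 12 hours (SE 0.22, adjusted p = 0.036), or by 0.47 relative to the median of all genes, and the call was lost under 11 of 14 alternatives. With the correction for GC content the difference was -0.20 (adjusted p = 0.501) and with the column code as a term -0.38 (adjusted p = 0.999), while under median-of-ratios scaling it was -0.56 (adjusted p = 0.102). At 7 days the difference from control was 0.20 ± 0.22 (adjusted p = 0.462).

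**Figure D2:**
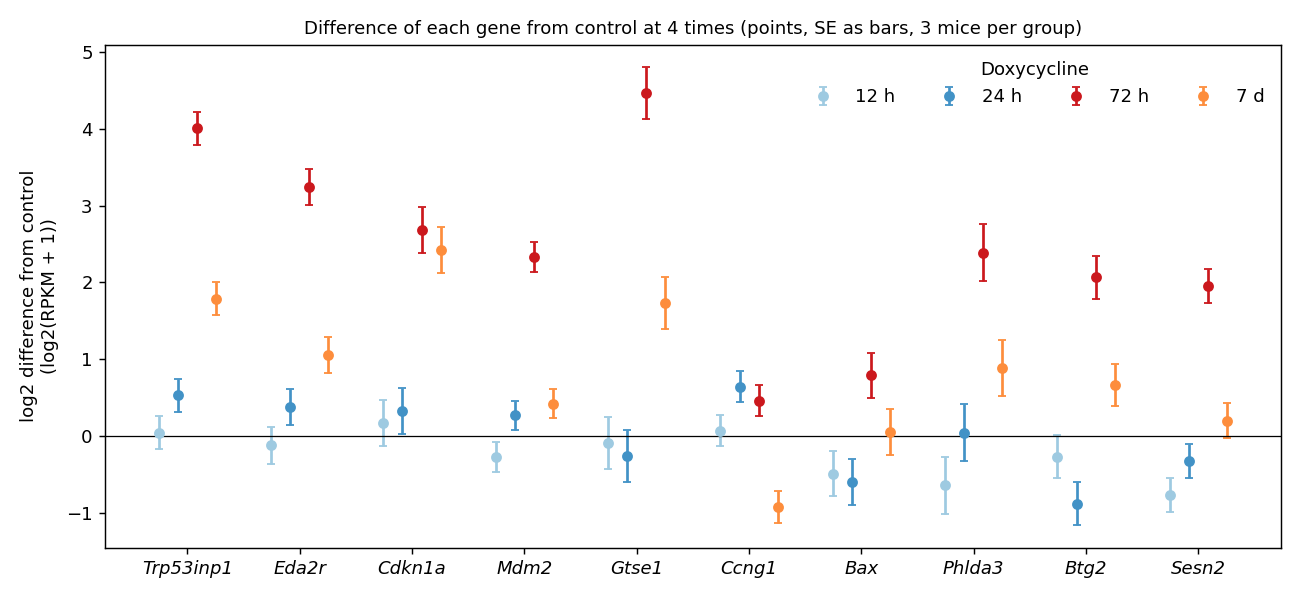
Difference from control in log2(RPKM + 1) for each gene at 12 hours, 24 hours, 72 hours and 7 days; points are estimates from 3 hearts against 3 and bars are standard errors. The 72 hour points of 8 genes lie between 1.95 and 4.46, those of Bax and Ccng1 are under 1, and at 7 days Cdkn1a is still at 2.42 while Ccng1 is at -0.92.

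In the early hearts the calls among these genes were few and near the shares of all tested genes. At 12 hours 0 of 10 genes had all values above the controls and 3 had all below, against 4.6% and 43% of all tested genes. At 24 hours these counts were 3 and 1, against 13.9% and 32.9%. At 12 hours against control 1 of 10 was called, Sesn2, which fell, while 12.7% of all tested genes (1375) fell and 0.524% (57) rose; median-of-ratios scaling made this 157 lower and 72 higher. At 24 hours Ccng1 rose and Btg2 fell, while 5.38% of all tested genes (585) rose and 10.6% (1151) fell; that scaling made this 908 higher and 753 lower. Between 24 and 12 hours limma called 0 of 10, with 4 at an unadjusted p under 0.05, while 3.35% of all tested genes (364) rose and 0.57% (62) fell, or 202 and 250 with that scaling. The largest of these differences were those of Phlda3 (0.69 ± 0.37), Btg2 (-0.61 ± 0.28), Ccng1 (0.57 ± 0.21) and Mdm2 (0.54 ± 0.19).

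At 7 days 5 of the 10 genes rose against control (Trp53inp1, Eda2r, Cdkn1a, Gtse1 and Phlda3) and Ccng1 fell. Among all tested genes 26.7% rose and 28.2% fell, so the background at this time is wide. All 7 day values were above the controls for 5 genes and below for 1, against 32.4% and 34.5% of all tested genes. These comparisons use the same control hearts as the 72 hour comparison by which the genes were chosen. Comparisons among the other times share no heart with it. Gtse1 and Eda2r passed the filter only through the late groups, so their 7 day calls describe them and are not clean tests. Against 12 hours, 8 of 10 rose by 7 days and Ccng1 fell (-0.99), with Bax the exception (0.54 ± 0.30, adjusted p = 0.139), while 35.6% of all tested genes (3864) rose and 15.5% (1681) fell, or 2570 and 2752 with median-of-ratios scaling. Against 24 hours, Trp53inp1, Eda2r, Cdkn1a, Gtse1 and Btg2 rose and Ccng1 fell (-1.56), while 27.2% of all tested genes (2951) rose and 18.8% (2039) fell, or 2499 and 2795 with that scaling. The rise of Eda2r in that comparison (0.68 ± 0.24, adjusted p = 0.0259) was lost under 8 alternatives, among them median-of-ratios scaling (0.56, adjusted p = 0.0875) and leaving out the 7 day heart A3283 (0.53, adjusted p = 0.116).

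The genes differed in how much of their 72 hour level was left at 7 days. As a share of the excess over the control mean, 82.1% was left for Cdkn1a. The share was 19.6% for Phlda3, 18.9% for Btg2, 16.3% for Trp53inp1, 13.4% for Gtse1, 12.7% for Eda2r, 10.6% for Bax, 9.25% for Mdm2 and 5.80% for Sesn2. Most of these shares move with single hearts, so their order below Cdkn1a is not firm. Leaving out the 7 day heart A3283 gave 6.95% for Gtse1, 3.86% for Mdm2, 2.26% for Sesn2 and -9.94% for Bax, whose 7 day mean was then below the control mean. Over leaving out each heart of the 3 groups the share was 63.3% to 103.6% for Cdkn1a, 13.9% to 18.1% for Trp53inp1 and 11.9% to 29.7% for Phlda3. For Ccng1 the share has no meaning because the 7 day mean was below the control mean. All 7 day values were below all 72 hour values for 9 genes, which was so for 26.2% of all tested genes, and the exception was Cdkn1a (-0.26 ± 0.30). These shares rest on the 72 hour hearts and describe them.

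Marker RNA of several cell types also differed at 7 days, and whether cell numbers or RNA per cell differed cannot be told here. Beside the counts below, 26.7% of all tested genes rose and 28.2% fell at 7 days. At 72 hours 6.39% rose and 5.22% fell. All 6 macrophage markers rose at 7 days, and their summed level was 873 to 1179 RPKM, against 71.0 to 86.3 RPKM in the controls. The 6 cardiomyocyte markers all fell, to a sum of 10286 to 11006 RPKM against 37407 to 39876 RPKM in the controls, and 5 of 6 fibroblast markers rose. Of 13 listed genes of dividing cells, 7 passed the filter and all 7 rose at 7 days, among them Top2a (1.43) and Ccnb1 (1.71). Outside 7 days Ccnb1 had group means of 0.29 to 0.87 RPKM, against 3.30 RPKM at 7 days. For Top2a they were 0.82 to 1.12 RPKM, against 3.91 RPKM. Both passed the filter only through the 7 day hearts, so the filter helped to fix this count. At 72 hours the macrophage sum was 80.6 to 100.96 RPKM and the cardiomyocyte sum 23855 to 32934 RPKM, with 1 of 6 cardiomyocyte markers lower (4 without A3278, and 0 without any other single heart). At that time limma called 0 of 6 macrophage markers (1 higher at an unadjusted p under 0.05) and 0 of 7 dividing-cell genes (2 higher at that p, median 0.47). Fibroblast and neutrophil markers had 0 calls and 0 at an unadjusted p under 0.05 at 72 hours, and endothelial markers 0 calls and 1 lower at that p. By 7 days 4 of 6 endothelial markers had fallen and 3 of 3 tested neutrophil markers had risen. The 4 listed neutrophil markers summed to 0.76 to 2.65 RPKM in the controls and 21.5 to 29.3 RPKM at 7 days. The lymphocyte list kept 1 tested gene of 6, which rose at 7 days. All 6 summed to 0.95 to 1.27 RPKM in the controls and 8.12 to 14.3 RPKM at 7 days. The filter thus favoured neutrophil and lymphocyte genes that were high at 7 days. Of 4 atrial markers 2, Myl7 and Myl4, fell at 72 hours (0 without any single heart other than A3278). At 7 days the atrial sum was 615 to 1279 RPKM, against 105 to 119 RPKM in the controls, where Nppa, which encodes atrial natriuretic peptide, rose (4.39) and Sln, which encodes sarcolipin, fell (-2.52; not called without A3269). The atrial genes were named after their values were seen. Of all these marker genes, 1 lymphocyte marker was listed at 0 in all 3 hearts of a group, at 12 hours, and no other was. The part of these shifts in the levels of the 10 genes was not tested.

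The mouse A3278 is the direct within-code comparison for the 72 hour values, since its column carries the controls' code. Its level over the control mean was 105-fold for Gtse1, 20.7-fold for Trp53inp1, 18.2-fold for Eda2r, 9.88-fold for Phlda3 and 9.69-fold for Cdkn1a. It was 6.71-fold for Sesn2, 5.85-fold for Btg2, 5.31-fold for Mdm2 and 2.14-fold for Bax. The other 72 hour mice, whose columns have other codes, were at 68.6 and 73.3 times the control mean for Gtse1, and at 24.1 and 29.8 times for Trp53inp1. For Phlda3 they were at 3.89 and 5.12 times.

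p53 itself and its other regulators were set beside the targets. Trp53 had 11.8, 5.66 and 7.72 RPKM at 12 hours, 6.86, 5.02 and 8.92 RPKM at 24 hours, 18.1, 34.3 and 17.6 RPKM at 72 hours, and 9.76, 10.7 and 15.0 RPKM at 7 days, against 9.68, 10.6 and 14.5 RPKM in the controls. It was all above the controls at 72 hours, when it rose by 0.90 ± 0.28 (adjusted p = 0.0483), a call lost under 10 of 15 alternatives, among them leaving out any single heart of the comparison (0.60 to 1.06). Of 11 tested genes in the list of p53 and its regulators, 5 rose and 0 fell at 72 hours, with a median of 0.34, while 6.39% of all tested genes rose and 5.22% fell. Leaving out the 72 hour heart A3281 or the control A3250 or A3280 left 3 that rose. At 7 days 4 rose and 0 fell (2 rose without A3283, A3250 or A3259, and 0 with the column code as a term), while 26.7% of all tested genes rose and 28.2% fell. Mdm4, the relative of Mdm2 that blocks p53, was already called at 24 hours (1.25 ± 0.24, adjusted p = 0.00798; not without the control A3280). It was higher by 1.38 ± 0.24 at 72 hours (adjusted p = 0.00195), with a mean of 10.8 RPKM against 3.38 RPKM in the controls. The difference between 72 and 24 hours was 0.13 (adjusted p = 0.781). Mdm4 also rose at 7 days (0.97 ± 0.24, adjusted p = 0.00287). With the column code as a term it was not called at 72 hours (0.86, adjusted p = 0.0853) or at 7 days (0.25, adjusted p = 0.584). Ppm1d, the phosphatase that switches off p53 and its kinases, rose at 72 hours (1.32 ± 0.24, adjusted p = 0.00237) and was at 0.15 ± 0.24 at 7 days (adjusted p = 0.628).

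Other known targets of p53, listed by role, were counted in the same way. Of 16 tested targets for arrest and apoptosis, 9 rose and 0 fell at 72 hours, with a median of 0.92, against 6.39% higher and 5.22% lower over all tested genes. The lists were chosen with earlier results of these data known. Lrdd, 1 of the 16, passed the filter only through the 72 hour hearts (4.96 RPKM, against 0.30 to 0.84 RPKM in the other groups). The filter thus helped to fix its place in the count. At 7 days 8 rose and 2 fell, with a median of 0.50, against 26.7% higher and 28.2% lower. Without the 7 day heart A3283 or A3345, or the control A3259, 5 rose at 7 days, and 1 fell without A3269, A3345 or any 1 control. Fas, a death receptor, rose by 1.68 ± 0.30 at 72 hours (adjusted p = 0.00233) and by 1.55 ± 0.30 at 7 days (adjusted p = 0.000388), the second not called with the column code as a term (0.96, adjusted p = 0.221). Plk2, a kinase of the centriole cycle, rose by 1.74 ± 0.24 at 72 hours (adjusted p = 0.000167) and by 1.65 ± 0.24 at 7 days (adjusted p = 1.85e-05). Ei24, a protein of the endoplasmic reticulum involved in autophagy, rose at 72 hours (0.91 ± 0.16, adjusted p = 0.00248) and was at 0.18 at 7 days (adjusted p = 0.369). Zmat3, an RNA-binding protein, rose by 0.98 ± 0.19 at 72 hours (adjusted p = 0.00435) and by 0.55 ± 0.19 at 7 days (adjusted p = 0.0229), the second lost under 4 of 14 alternatives, among them leaving out A3283 (0.42), A3345 (0.53) or the control A3259 (0.46). Bbc3, which encodes the killer protein Puma, rose by 0.94 ± 0.27 at 72 hours (adjusted p = 0.0345), a call lost under 7 of 14 alternatives, among them leaving out A3278 (0.52, adjusted p = 0.0789) or any 1 control, and was at 0.22 at 7 days (adjusted p = 0.51). Pmaip1 was under the filter and was not tested. With the column code as a term, Fas, Ei24 and Zmat3 lost the 72 hour call (1.42, 0.94 and 1.15). Gadd45a, which links p53 to repair and arrest, was at 0.22 at 72 hours (adjusted p = 0.67) and fell by 1.58 at 7 days (SE 0.31, adjusted p = 0.000372), a call lost with the column code as a term (-1.05, adjusted p = 0.123). Perp, a membrane protein of cell junctions, fell by 1.12 at 24 hours (SE 0.28, adjusted p = 0.0182; not called without A3262, A3259 or A3280), was at -0.25 at 72 hours (adjusted p = 0.583) and rose by 0.97 ± 0.28 at 7 days (adjusted p = 0.00681).

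Of 15 tested targets for repair and metabolism, 5 rose and 0 fell at 72 hours, with a median of 0.29, against 6.39% higher and 5.22% lower over all tested genes. At 7 days 4 rose and 3 fell, which is near the shares of all tested genes at that time (26.7% higher and 28.2% lower), and the median was -0.03, as over all tested genes. Gdf15, a secreted stress hormone, rose by 2.55 ± 0.35 at 72 hours (adjusted p = 0.000167), with a mean of 20.7 RPKM against 2.42 RPKM in the controls, and by 1.08 ± 0.35 at 7 days (adjusted p = 0.014; not called without the control A3259, at 0.95, or with a pseudocount of 0.1). It fell by 1.16 at 12 hours (SE 0.35, adjusted p = 0.0385), a call lost under 12 of 15 alternatives, among them leaving out any 1 heart. Ddb2, which recognises damaged DNA and is a target mainly in human cells, was at -0.09 ± 0.19 at 72 hours (adjusted p = 0.776) and 0.06 at 7 days (adjusted p = 0.806). Rrm2b, which supplies nucleotides for repair, rose by 0.80 ± 0.25 at 24 hours (adjusted p = 0.0417), a call lost under 8 of 14 alternatives, among them the correction for GC content (0.29, adjusted p = 0.322) and leaving out A3254, A3262, A3259 or A3280. It was at 0.53 ± 0.25 at 72 hours (adjusted p = 0.174) and -0.21 at 7 days (adjusted p = 0.493).

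The nearest relatives of the 10 genes were counted too. Of 13 tested paralogs, 2 rose and 1 fell at 72 hours, with a median of -0.11, against 6.39% higher and 5.22% lower over all tested genes. At 7 days 4 rose and 6 fell, with a median of -0.21, against 26.7% higher and 28.2% lower over all tested genes. At 72 hours 1 rose without A3278, A3281, A3250 or A3259, and at 7 days 2 rose without A3283. Trp53inp2, the relative of Trp53inp1 that acts in autophagy, had a mean of 69.0 RPKM at 12 hours, 58.1 RPKM at 24 hours, 77.4 RPKM at 72 hours and 39.7 RPKM at 7 days, against 160 RPKM in the controls. It fell by 1.23 at 12 hours (SE 0.34, adjusted p = 0.0318), a call lost under 11 of 15 alternatives, among them leaving out any 1 heart. It fell by 1.60 at 24 hours (SE 0.34, adjusted p = 0.0111; not called without A3262, at -1.08, or A3280) and by 1.99 at 7 days (SE 0.34, adjusted p = 0.000121). Its fall at 72 hours (-1.08, adjusted p = 0.049) was lost under 11 of 15 alternatives, among them leaving out any single heart except A3278. Sesn1 was at -0.40 at 72 hours (adjusted p = 0.27) and fell by 1.20 at 7 days (SE 0.23, adjusted p = 0.000334). Sesn3 was at -0.26 at 72 hours (adjusted p = 0.523) and -0.17 at 7 days (adjusted p = 0.596). Ccng2 was at -0.21 at both times (adjusted p = 0.498 and 0.37), and Phlda1 at 0.46 at 72 hours (adjusted p = 0.284) and -0.19 at 7 days (adjusted p = 0.574). Cdkn1b, which encodes the kinase inhibitor p27, fell by 0.66 at 12 hours (SE 0.21, adjusted p = 0.0482; lost under 12 of 15 alternatives, among them leaving out any 1 heart except A3252), was at -0.39 at 72 hours (adjusted p = 0.229) and fell by 0.79 at 7 days (SE 0.21, adjusted p = 0.00422; not called with the column code as a term, at -0.33). Btg1 fell by 0.93 at 24 hours (SE 0.28, adjusted p = 0.0344), a call lost under 7 of 14 alternatives, among them leaving out any 1 heart except A3254. It was at 0.66 at 72 hours (adjusted p = 0.126) and rose by 0.91 ± 0.28 at 7 days (adjusted p = 0.0102), but not without A3283 (0.76, adjusted p = 0.0519) or with the correction for GC content (0.50, adjusted p = 0.128). Bak1, the second pore-forming protein beside Bax, rose by 0.90 ± 0.25 at 72 hours (adjusted p = 0.0265), a call lost under 6 of 15 alternatives, among them leaving out A3278 (0.69, adjusted p = 0.0584). Bak1 rose by 0.88 ± 0.25 at 7 days (adjusted p = 0.00624). In the Bcl2 family, the group to which Bak1 and Bax belong, Bak1 was the 1 gene of 10 tested to rise at 72 hours. There 0 were lower (1 at an unadjusted p under 0.05), beside the same 6.39% and 5.22%. At 7 days 4 genes of the family rose and 2 fell, beside the same 26.7% and 28.2%. The 72 hour rise of Bak1 was lost without A3278, A3281, A3250 or A3259, and 2 genes of the family rose at 7 days without A3283, A3345 or any 1 control. The family's 7 day falls were 1 without A3269, A3283, A3250 or A3280. Of 9 tested cyclins, cyclin-dependent kinases and their partners, limma called 0 at 72 hours, again beside 6.39% and 5.22%. At an unadjusted p under 0.05, 1 was higher and 3 were lower at that time, and 4 lower were called without A3278. At 7 days 4 of these 9 genes rose and 3 fell, again beside 26.7% and 28.2%.

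Other stress programs were counted beside these. Of 12 tested immediate early genes, 6 rose and 0 fell at 72 hours, with a median of 0.86, against 6.39% higher and 5.22% lower over all tested genes. At 7 days 5 rose (3 without A3283) and 1 fell, against 26.7% and 28.2%. Fos rose by 1.82 ± 0.34 at 72 hours (adjusted p = 0.00297) and by 2.13 ± 0.34 at 7 days (adjusted p = 5.65e-05). Atf3 rose by 2.11 ± 0.30 at 72 hours (adjusted p = 0.00029) and was at 0.56 at 7 days (adjusted p = 0.122). Of 9 tested targets of ATF4, the factor of the amino acid and unfolded protein responses, limma called 0 at 72 hours, with 0 also at an unadjusted p under 0.05, 1 lower without A3278 and a median of 0.03, and Asns, which makes asparagine, was at 0.08 ± 0.16 (adjusted p = 0.785). The list leaves out Gdf15, Atf3 and Sesn2, which are given above, so its counts cover only the genes listed. Of the 9, 4 rose and 1 fell at 7 days (0 fell without A3269), against 26.7% and 28.2% over all tested genes. At 7 days Asns rose by 0.94 ± 0.16 (adjusted p = 0.000133). Its group means were 0.89 to 0.98 RPKM outside 7 days and 2.61 RPKM at 7 days. Asns passed the filter only through the 7 day hearts, so this call is not free of the filter. Ddit3, a death-linked factor of the same response, was at 0.30 at 72 hours (adjusted p = 0.485) and -0.23 at 7 days (adjusted p = 0.493). The difference between the lists was not tested.

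**Figure D3:**
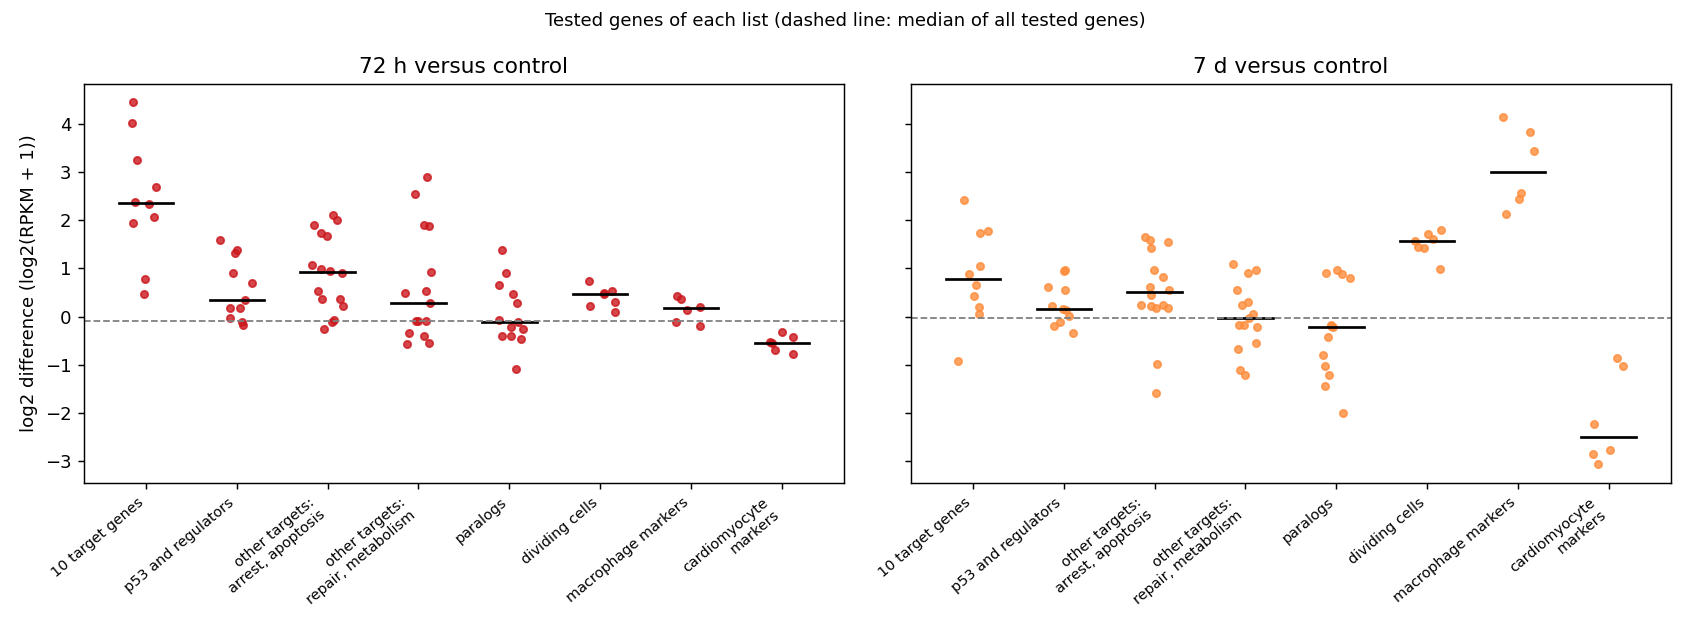
Differences from control in log2(RPKM + 1) at 72 hours (left) and 7 days (right) for the tested genes of 8 lists; each point is 1 gene, black bars are list medians and the dashed line is the median of all tested genes. At 72 hours the 10 chosen targets have a median of 2.36 and the other targets for arrest and apoptosis one of 0.92, while at 7 days the macrophage markers (3.00) and cardiomyocyte markers (-2.50) lie farthest from 0.

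Pearson correlations of log2(RPKM + 1) between pairs had a median of 0.85 over 45 pairs, from -0.31 (Ccng1 with Cdkn1a) to 0.98 (Mdm2 with Eda2r). The hearts fall into 5 groups, and all pairs share the 72 hour hearts by which the genes were picked, so these values describe the choice. With the mean course of the 10 genes the correlation was highest for Gtse1 (0.98) and Sesn2 (0.98) and lowest for Cdkn1a (0.83) and Ccng1 (0.14). Outside the 10 genes, those closest to the mean course over the 15 hearts were Gss (0.99), Polr3e (0.99), 3230401D17Rik (0.98), 1700007K13Rik (0.98), Ercc5 (0.97), Ccnt1 (0.97), Lrdd (0.97), Isg20l1 (0.97), Klhdc9 (0.97) and AA986860 (0.97). Of these, 3 are in the lists of known p53 targets, namely Ercc5, Lrdd and Isg20l1. Those 2 lists hold 16 and 15 of the 10868 tested genes. The ranking rests on the 72 hour hearts by which the members were picked, and the lists were chosen with earlier results known. This count therefore describes the choice and tests nothing. Lrdd and AA986860 passed the filter only through the 72 hour hearts, with means of 4.96 and 5.97 RPKM there. In the other groups the means were 0.30 to 0.84 RPKM for Lrdd and 0.53 to 0.93 RPKM for AA986860. Isg20l1, an apoptosis-enhancing nuclease, had a mean of 79.2 RPKM at 72 hours, against 17.2 RPKM in the controls. Gss, which makes glutathione, had a mean of 28.8 RPKM at 72 hours, against 9.37 RPKM in the controls. 1700007K13Rik had a mean of 47.7 RPKM at 72 hours and 4.38 RPKM at 7 days, and was listed at 0 in the 3 controls. Its means were 0.05 RPKM at 12 hours and 0.14 RPKM at 24 hours, so it passed the filter only through the late groups.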

How the data were processed

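RNA-seq of ventricle RNA gave 1 table of RPKM, which the authors deposited for 16042 genes in 20 columns. Reads were aligned to mm9 with TopHat and Bowtie, per the submitters' processing notes; for versions, the counting tool, the annotation and strand handling, nothing was given in the sources used here. Read counts were not recovered, so no count model was used. The 2 columns of 5 mice were averaged. Values were analysed as log2(RPKM + 1) with limma 3.58.1 in R 4.3.3 (lmFit, eBayes with trend) on the 10868 genes whose mean was 1 RPKM or more, all 15 mice in 1 fit (10 residual and 7.12 prior degrees of freedom), with Benjamini-Hochberg adjustment within a comparison at 0.05. The fit was tested on simulated data. Tables, depth and sequence searches used Python 3.11.15 with pandas and numpy. Depth estimates from the step between low RPKM values lay within 10% of the truth in 60 of 60 simulated columns. Those columns were drawn for all 70 genes with exact lengths, while the real estimates used 5 to 21 genes in a column. The simulation therefore does not give the precision of the real depths or of the read numbers derived from them. Depth limits precision for genes under about 1 RPKM. Gene positions and sequence came from the mm9 genome and GENCODE vM1. No exon of the 10 genes overlaps an exon of another gene, and overlap with introns was not examined.

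The members and the 16 lists (158 symbols, of which 154 were in the table) were chosen with earlier results of these data known. The rule for named genes took the 10 members, Celf1, a set of list genes fixed by name, and the 10 genes with the highest Pearson correlation with the members' mean z-scored course. Of the genes that rule names, Bcl2 was not analysed here and Pmaip1 was under the filter. Alternatives were no filter or one at 5 RPKM, a pseudocount of 0.1, quantile normalization or median-of-ratios scaling, the compared groups alone, the first column of each mouse, a lowess GC correction (span 0.3), a term for the column code in a fit of 16 single columns that left out 24 hours and took the mouse as random block (correlation 0.283), and leaving out each mouse. For the members' results these alternatives were planned. Their use on the other named genes and the list counts, and leaving out hearts for the shares of the 72 hour excess, were chosen after seeing the data, as was giving the 12 and 24 hour values of the named genes called there.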

Additional observations from a re-analysis of the deposited data

Results flagged for a closer look

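The effects at 7 days differed from those at 12 hours by a direct test for 9 of the 10 genes and from those at 24 hours for 6. Over all tested genes 35.6% were higher and 15.5% lower at 7 days than at 12 hours, and 27.2% higher and 18.8% lower than at 24 hours, so the count of 6 is near the share of all genes. The difference between 7 days and 12 hours was 1.74 for Trp53inp1, 1.18 for Eda2r, 2.25 for Cdkn1a, 0.69 for Mdm2, 1.83 for Gtse1, 1.53 for Phlda3, 0.93 for Btg2 and 0.97 for Sesn2, and it was -0.99 for Ccng1. Between 7 days and 24 hours it was 1.26 for Trp53inp1, 0.68 for Eda2r, 2.09 for Cdkn1a, 1.99 for Gtse1 and 1.54 for Btg2, and -1.56 for Ccng1. These are log2 differences from limma with an adjusted p under 0.05. Those of Gtse1 and Eda2r belong to genes that passed the filter only through the late groups. The call of Eda2r against 24 hours was lost under 8 of 13 alternatives. That of Mdm2 against 12 hours was lost under median-of-ratios scaling (0.38), quantile normalization (0.44) and GC correction (0.37), and that of Btg2 without A3276 (0.75) or A3345 (0.73).

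Bax, which is not among these, and Mdm2, Sesn2 and Btg2, which are, moved in opposite directions from the controls in every heart of a pair of groups. All 72 hour hearts were above and all 12 hour hearts below the controls for Mdm2, Bax and Sesn2, with differences between 72 and 12 hours of 2.60, 1.28 and 2.71 in the same order. For Btg2 all 72 hour hearts were above and all 24 hour hearts below, with a difference of 2.94. These differences were not tested, since the 72 hour hearts chose the genes. Over all tested genes, 15.5% had all 72 hour values above the controls. All values were below the controls for 43% at 12 hours and for 32.9% at 24 hours, and the share with both was not counted. At 12 hours the sign turned for Mdm2 under median-of-ratios scaling (0.0737) and for Bax with GC correction (0.26). Sesn2 at 12 hours and Btg2 at 24 hours kept their sign under every alternative.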

How the results depend on the processing

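No paired analysis was possible because each mouse number occurs in 1 group only. Of 10 genes, the count called at 12 hours was 1, and 0 unfiltered, with a filter at 5 RPKM, quantile normalization, median-of-ratios scaling, first columns, GC correction or the column code, and 0 to 1 without single mice. At 24 hours it was 2, and 0 with no filter, first columns or GC correction, 1 with either scaling, and 0 to 1 without single mice. At 7 days against control it stayed at 5 to 8. Over all genes, the count called was 1432 at 12 hours (9 to 3244 under alternatives), 1736 at 24 hours (39 to 2179), 1262 at 72 hours (376 to 2490), 5960 at 7 days (3171 to 6780) and 426 between 24 and 12 hours (95 to 672).

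The values below had the opposite sign to the reported one, and of the reported ones only the 12 hour fall of Gdf15 was called, for which the column code gave 0.18. At 12 hours median-of-ratios scaling gave 0.0737 for Mdm2 and 0.0716 for Btg2, and quantile normalization 0.0678 and 0.0644. GC correction gave -0.17 for Trp53inp1, 0.35 for Gtse1, -0.0371 for Ccng1, 0.26 for Bax, 0.10 for Phlda3 and 0.0228 for Btg2. The column code gave -0.19 for Trp53inp1, 0.47 for Gtse1, -0.36 for Ccng1, 0.50 for Phlda3 and 0.13 for Btg2. At 24 hours first columns gave -0.12 for Phlda3, and GC correction -0.0385 for Trp53inp1, -0.0099 for Eda2r, 0.11 for Gtse1, 0.008 for Bax and 0.17 for Sesn2. For Mdm2 between 7 days and 24 hours, median-of-ratios scaling and GC correction gave -0.0137 and -0.0138. For Cdkn1a between 7 days and 72 hours the column code gave 0.20. For Perp at 72 hours the code gave 0.0683, for Celf1 (Cugbp1) at 7 days quantile normalization gave 0.0013, for Phlda1 and Ddit3 at 7 days GC correction gave 0.26 and 0.0971 and the code 0.81 and 0.32, and for Ddb2 at 7 days quantile normalization, GC correction and the code gave -0.0499, -0.0269 and -0.16.

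Without single mice, ranges that crossed 0 at 12 hours were -0.0542 to 0.13 for Trp53inp1, -0.31 to 0.0228 for Eda2r, -0.11 to 0.54 for Cdkn1a, -0.25 to 0.0107 for Gtse1 and -0.0208 to 0.17 for Ccng1. They were -0.22 to 0.35 for Phlda3 at 24 hours, and at 7 days -0.16 to 0.41 for Bax, -0.11 to 0.46 for Ppm1d, -0.15 to 0.18 for Trp53 -0.0621 to 0.18 for Ddb2 and -0.38 to 0.007 for Phlda1. At 72 hours the range was -0.0398 to 0.16 for Asns. Between 24 and 12 hours it was -0.21 to 0.44 for Cdkn1a and -0.28 to 0.21 for Bax. Between 7 days and 24 hours it was -0.0644 to 0.33 for Mdm2. It was -0.39 to 0.014 for Ccng1 between 72 and 24 hours, and -0.53 to 0.0167 for Cdkn1a between 7 days and 72 hours. The cause of these changes was not tested. The code fit has no 24 hour values. In it the controls are tied to the other groups only through the 72 hour mouse A3278, which shares their code. Every comparison with the controls under that fit, also at 72 hours, therefore depends on that heart.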
